A study of Mus musculus with 2 samples.

Results

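Itaconate, pyruvate and tricarboxylic acid (TCA) cycle genes were followed in mouse macrophages that had been exposed to lipid A in 2 rounds. The set was chosen by name and held 39 genes of the 55536 annotated genes measured. It comprised Acod1, the enzymes of the cycle, the pyruvate dehydrogenase complex with its kinases and a phosphatase, the carriers and enzymes that bring pyruvate in and take citrate out, and the enzymes that join the cycle to aspartate and glutamate. All 39 symbols matched a single gene identifier. The cells were macrophages derived from C57BL/6J bone marrow, primary phagocytes grown in culture from marrow cells. They received 100 ng/ml lipid A for 12 h, had it washed out for 12 h, and received 100 ng/ml lipid A again for 120 min, with polyA-selected RNA measured by sequencing. Lipid A, the part of bacterial endotoxin that sits in the outer membrane, is sensed by the receptor TLR4. Some label fields name the agent lipoprotein A instead. The 2 libraries, replicates 1 and 2, form a single group, so values below describe levels in doubly exposed cells and no condition was compared with another. Both libraries carry the same donor identifier, and separate animals are not mentioned for them, so their spread may be technical.

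The TCA cycle oxidises acetyl groups in mitochondria, feeds electrons to the respiratory chain and supplies citrate, 2-oxoglutarate and oxaloacetate for biosynthesis. Pyruvate enters mitochondria through the MPC carrier and becomes acetyl-CoA through the pyruvate dehydrogenase complex, which PDK kinases switch off and PDP phosphatases switch on. ACOD1, also called IRG1, removes a carboxyl group from the cycle intermediate cis-aconitate to make itaconate, a metabolite that macrophages accumulate after endotoxin exposure and that inhibits succinate dehydrogenase.

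The libraries held 45377715 and 32112416 expected counts in replicates 1 and 2. Macrophage identity was well marked, with 11 of 12 macrophage markers at 10 TPM (transcript abundance per length, scaled to a fixed total) or more in both libraries, led by lysozyme Lyz2 at 9397 ± 591 TPM (SD, n = 2). The exception was the scavenger receptor gene Cd163, at 0.12 and 0.06 TPM in replicates 1 and 2. Of the lists for other cell types, all 7 T cell, 5 NK cell, 5 dendritic cell, 6 erythroid and 5 fibroblast markers and 4 of 5 B cell markers were under 1 TPM in both libraries. The highest of these were Lck, Ncr1, Xcr1, Klf1 and Col3a1, and Cd79b among B cell markers at 7.31 and 2.47 TPM in replicates 1 and 2. Neutrophil markers summed to 69.4 TPM in replicate 1 and 12.1 TPM in replicate 2, with 5 of 10 under 1 TPM in both libraries and Ly6g at 0. By mean level their highest member was the calprotectin subunit gene S100a8, at 25.8 TPM in replicate 1 and 3.72 TPM in replicate 2. In replicate 1 its partner S100a9 was slightly above it, at 26.4 TPM. In bulk RNA, fewer cells of a type and less RNA per cell cannot be told apart.

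Short stretches of 2 kinds are shown because results below turn on them. The first is the region upstream of the Acod1 start, since Acod1 was the most abundant of these transcripts. It is taken from RefSeq (GRCm38.p6), covers 250 to 21 bases before the RefSeq start site on the plus strand, and lies at chr14:103046762-103046991. Capitals mark matches, on either strand, to CCAAT (here read as its complement), to the kB-like letters GGANNTTCC and to TATAAA, in that order.
Acod1 upstream region: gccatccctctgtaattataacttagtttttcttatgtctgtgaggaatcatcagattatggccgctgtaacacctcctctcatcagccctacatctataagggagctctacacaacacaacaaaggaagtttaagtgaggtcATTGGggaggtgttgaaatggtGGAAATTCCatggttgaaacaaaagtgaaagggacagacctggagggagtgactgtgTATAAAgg
The second kind is a set of coding exons that separate the main transcripts of Ogdh, Acly and Sdhc, read from the GENCODE M21 transcripts (GRCm38) and printed in lower case throughout. The Ogdh exons are 103 bases at chr11:6316978-6317080 and 91 bases at chr11:6316765-6316855 on the plus strand, each present in 2 annotated transcripts and the alternative to the other in Ogdh-201 and Ogdh-202. The Acly exon is 30 bases at chr11:100503160-100503189 and the Sdhc exon 102 bases at chr1:171143558-171143659, both on the minus strand.
Ogdh-201 exon: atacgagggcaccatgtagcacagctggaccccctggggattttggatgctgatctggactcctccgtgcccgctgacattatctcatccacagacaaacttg
Ogdh-202 exon: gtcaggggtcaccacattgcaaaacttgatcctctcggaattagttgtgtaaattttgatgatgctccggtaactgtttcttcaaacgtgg
Acly-203 exon: attcagtcccaagtccaagatccctgcaag
Sdhc-202 exon: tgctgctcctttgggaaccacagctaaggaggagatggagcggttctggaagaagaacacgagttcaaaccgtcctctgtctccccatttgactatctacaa

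Most of the genes were well expressed, and Acod1 stood far above the others. In both libraries, 30 of the 39 genes (76.9%) reached 10 TPM, against 11.1% of all annotated genes and 27.3% of the 21951 protein-coding genes. A level of 100 TPM in both libraries was reached by 6 genes (15.4%), namely Acod1, Sdhb, Sdha, Mpc1, Mdh2 and Cs, against 2.12% of annotated and 5.22% of protein-coding genes. The median of the genes' mean levels was 53.4 TPM, against 18.2 TPM over the 9765 protein-coding genes with at least 1 TPM in both libraries. Only the pyruvate carboxylase gene Pcx and the kinase gene Pdk4 were under 1 TPM in both. Ordered by mean TPM, 11 of the 38 neighbouring pairs did not overlap between libraries and 27 did, so neighbours such as Mdh2 and Sdha cannot be placed in order with these 2 libraries.

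**Figure D1:**
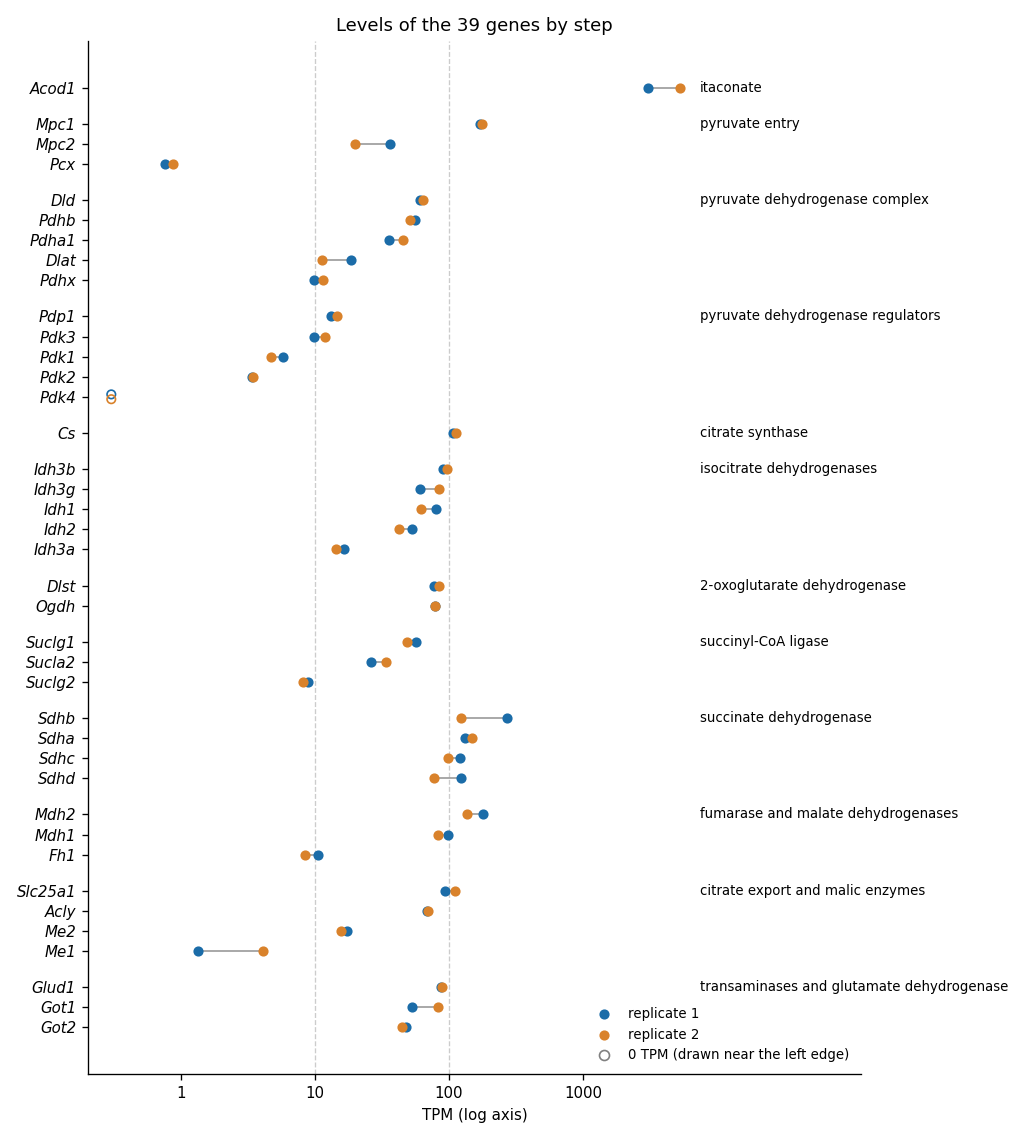
TPM (log axis) of each of the 39 genes in replicate 1 (blue) and replicate 2 (orange), grouped by step, with dashed lines at 10 and 100 TPM. Acod1 lies at 3047 and 5352 TPM in replicates 1 and 2, apart from all other genes, and Pdk4 is at 0 in both libraries.

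Acod1 (ENSMUSG00000022126.6, chr14:103046977-103056573 in mm10, plus strand) was at 3047 TPM in replicate 1 and 5352 TPM in replicate 2, a mean of 4199 ± 1630 TPM (SD, n = 2). It ranked 30th and 20th of all annotated genes in replicates 1 and 2. Its 223667 and 266780 reads were 0.493% and 0.831% of all counts, with exact Clopper-Pearson 95% intervals of 0.491 to 0.495% and 0.828 to 0.835% that cover counting error only. Acod1 alone made up 56.2% of the summed TPM of the 39 genes in replicate 1 and 71.2% in replicate 2. Its level was 1.28 times the sum of the other 38 genes in replicate 1 and 2.47 times in replicate 2. A single transcript is annotated for the gene, and no 31-base stretch of it occurs in another annotated gene.

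Against the isocitrate dehydrogenase genes, which encode enzymes that make 2-oxoglutarate, Acod1 was higher by more than an order of magnitude for every gene. The TPM ratio of Acod1 to the 5 Idh genes had a median of 50.0 in replicate 1 and 85.9 in replicate 2, a mean of 68.0 ± 25.4 (SD, n = 2). Single ratios ran from 33.9, to Idh3b in replicate 1, to 371, to Idh3a in replicate 2. Acod1 was 10.2 times the 5 Idh genes summed in replicate 1 and 17.8 times in replicate 2. Against the 4 succinate dehydrogenase genes, whose enzyme oxidises succinate to fumarate and is complex II of the respiratory chain, the median ratio was 24.1 in replicate 1 and 48.9 in replicate 2, a mean of 36.5 ± 17.6. Single ratios ran from 11.2, to Sdhb in replicate 1, to 69.0, to Sdhd in replicate 2. Acod1 was 4.71 and 12.0 times the 4 Sdh genes summed in replicates 1 and 2. Within each library, every ratio was above 10, and each of the 9 ratios was higher in replicate 2 than in replicate 1. They share the Acod1 level, which was itself 1.76 times as high in replicate 2 by TPM. In replicate 1 all Idh ratios lay above all Sdh ratios, of which Sdhc had the highest at 25.0. In replicate 2 they overlapped, with Idh3b at 55.2 and Idh3g at 63.8 below Sdhd at 69.0. TPM is scaled to transcript length, so these are ratios of transcript levels. Enzyme amounts and itaconate were not measured.

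**Figure D2:**
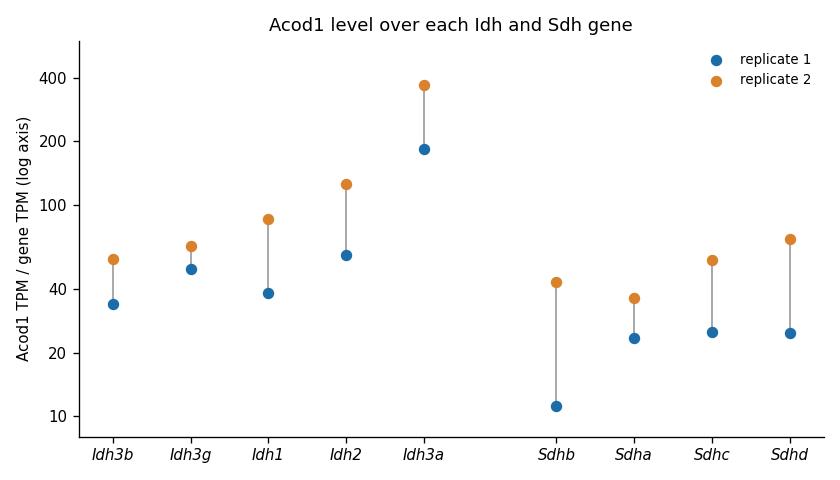
Acod1 TPM divided by the TPM of each Idh gene (left) and Sdh gene (right), log axis, in replicate 1 (blue) and replicate 2 (orange). Ratios run from 11.2 to 371 and are higher in replicate 2 for all 9 genes, which share the Acod1 level.

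Of genes measured beside the set, the cytosolic aconitase gene Aco1, whose product doubles as an iron sensor, was at 26.8 and 21.9 TPM in replicates 1 and 2, and the related iron-responsive RNA-binding protein gene Ireb2 at 14.6 and 13.0 TPM.

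Pyruvate entry was led by Mpc1, one of the subunits of the mitochondrial pyruvate carrier, at 170 TPM in replicate 1 and 177 TPM in replicate 2. Its partner subunit Mpc2 was lower, at 36.5 and 19.9 TPM in replicates 1 and 2, so that the Mpc1 to Mpc2 ratio was 4.66 in replicate 1 and 8.89 in replicate 2. In 29.0% of its 31-base stretches the leading Mpc1 transcript matches the processed copy Mpc1-ps, which held 92.8 and 135 reads against 3441 and 2500 for Mpc1 in replicates 1 and 2. Pcx, which makes oxaloacetate from pyruvate, was at 0.76 and 0.86 TPM from 92 and 71 reads. The second deposited quantification gave it 1.55 TPM in replicate 1 and 0.796 TPM in replicate 2, so its level is uncertain.

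The pyruvate dehydrogenase complex genes were at moderate levels that differed between subunits. The E3 gene Dld, whose product also serves 2-oxoglutarate dehydrogenase, was at 61.2 and 63.9 TPM in replicates 1 and 2. The E1 subunit genes Pdhb and Pdha1 were at 55.6 and 51.2 TPM and at 35.6 and 45.0 TPM. The E2 gene Dlat was lower, at 18.5 and 11.2 TPM, and Pdhx, which anchors E3 to the core, was at 9.81 and 11.5 TPM. Pdhb shared 41.9% of its 31-base stretches with the pseudogene Gm6123, which held 3 reads in replicate 1 and 1.03 in replicate 2. Of its regulators, the phosphatase gene Pdp1 was highest at 13.0 and 14.7 TPM. Of the 4 kinase genes, Pdk3 was at 9.75 and 11.8 TPM, Pdk1 at 5.80 and 4.68 TPM, and Pdk2 at 3.35 and 3.44 TPM, and these did not overlap one another between libraries. By protein-coding transcripts alone Pdk1 was at 2.66 and 3.65 TPM in replicates 1 and 2, which overlaps Pdk2. Pdk4 had 0 reads in both libraries, and a floor of 3 reads puts its upper limit at 0.0662 CPM in replicate 1 and 0.0935 CPM in replicate 2. That limit holds for these counts only. The second quantification gave Pdk4 0.0085 TPM in replicate 1 and 0.104 TPM in replicate 2.

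The first steps of the cycle had a wide range of levels among the subunits of a single enzyme. Citrate synthase Cs was at 108 and 112 TPM in replicates 1 and 2. The NAD-dependent isocitrate dehydrogenase is built from Idh3a, which carries catalysis, and the subunits Idh3b and Idh3g. Idh3b was at 89.9 and 97.0 TPM and Idh3g at 61.0 and 83.9 TPM, while Idh3a was at 16.5 and 14.4 TPM in replicates 1 and 2. The Idh3b level was thus 5.45 and 6.72 times that of Idh3a, and the Idh3g level 3.70 and 5.82 times, with no overlap between libraries. Idh3b overlaps the exons of Nop56 on the opposite strand, a gene with 1589 and 1259 counts in replicates 1 and 2, against 3650 and 2711 for Idh3b. Whether counting used strand is not given in the sources used here, so reads of the overlap cannot be assigned with certainty. The NADP-dependent genes were Idh1, cytosolic, at 79.9 and 62.3 TPM, and Idh2, mitochondrial, at 52.5 and 42.4 TPM. The Idh2 to Idh1 ratio was 0.66 in replicate 1 and 0.68 in replicate 2. The 5 Idh genes summed to 299.8 TPM in replicate 1 and 300.0 TPM in replicate 2. The closeness depended on the quantification, since in the second one the sums were further apart and higher in replicate 2. The replicate 2 sum also included 18.7 TPM of Idh3g-207, a 395-base transcript without a coding annotation that was at 0 in replicate 1.

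The next steps, from 2-oxoglutarate to succinate, were at similar levels in the 2 libraries. Ogdh, the E1 enzyme of the 2-oxoglutarate dehydrogenase complex, was at 78.3 and 78.7 TPM and its E2 partner Dlst at 77.4 and 84.7 TPM in replicates 1 and 2. The Ogdh to Dlst ratio was 1.01 and 0.93. In succinyl-CoA ligase the shared alpha subunit Suclg1 was at 56.2 and 48.2 TPM. The ADP-forming beta subunit Sucla2 was at 26.1 and 33.6 TPM and the GDP-forming beta subunit Suclg2 at 8.89 and 8.07 TPM, so the level of Suclg2 was 0.34 and 0.24 times that of Sucla2. Suclg2 shared 28.0% of its 31-base stretches with other annotated genes, chiefly Gm15163, at 2.30 and 1.22 reads.

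Succinate dehydrogenase was the step with the highest summed TPM after Acod1, at 647 TPM in replicate 1 and 447 TPM in replicate 2. Sdha (chr13:74322254-74350280, minus strand), the flavoprotein that binds succinate, was at 131 and 147 TPM in replicates 1 and 2. Sdhb (chr4:140961203-140979193, plus strand), the iron-sulfur subunit, was at 272 TPM in replicate 1 and 124 TPM in replicate 2. The membrane anchors Sdhc and Sdhd were at 122 and 98.0 TPM and at 123 and 77.5 TPM. Sdhb, Sdhc and Sdhd were thus higher in replicate 1 while Sdha was not. The Sdha to Sdhb ratio was 0.48 in replicate 1 and 1.19 in replicate 2, so the order of these subunits turned between libraries.

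Fumarase was low beside its neighbours. Fh1 was at 10.5 and 8.46 TPM in replicates 1 and 2, and Cs exceeded it 10.2-fold and 13.3-fold. The mitochondrial malate dehydrogenase gene Mdh2 was at 181 and 137 TPM, and the cytosolic Mdh1 at 98.2 and 82.6 TPM, a Mdh2 to Mdh1 ratio of 1.84 and 1.66. In the second quantification Mdh2 was at 142 and 130 TPM and Mdh1 at 109 and 88.7 TPM in replicates 1 and 2. The size of the ratio thus depended on the quantification. Mdh1 overlaps exons of Wdpcp on the opposite strand, which had 271 and 138 counts against 4938 and 2014 for Mdh1.

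Citrate export was represented by the carrier Slc25a1, at 93.3 and 110 TPM in replicates 1 and 2, and by Acly, which cleaves cytosolic citrate to acetyl-CoA, at 68.2 and 69.1 TPM. By protein-coding transcripts alone Slc25a1 was at 79.3 and 64.8 TPM in replicates 1 and 2, the opposite order. Its reads, scaled to library size, gave a log2 ratio of replicate 2 over replicate 1 of -0.008, against 0.24 from TPM. The malic enzyme genes, whose products make pyruvate from malate, were lower. Mitochondrial Me2 was at 17.4 and 15.7 TPM. Cytosolic Me1 was at 1.33 TPM in replicate 1 and 4.10 TPM in replicate 2, from 116 and 262 reads. Me1 shared 35.3% of its 31-base stretches with other genes, chiefly Gm7049, which had 0 reads in both libraries.

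Of the enzymes linking the cycle to amino acids, Glud1, which makes 2-oxoglutarate from glutamate, was at 87.9 and 88.5 TPM in replicates 1 and 2. The mitochondrial aspartate transaminase Got2 was at 48.1 and 44.5 TPM. The cytosolic Got1 was at 53.0 TPM in replicate 1 and 82.6 TPM in replicate 2, while its reads were 2924 and 1806. Scaled to library size these reads gave a log2 ratio of replicate 2 over replicate 1 of -0.12, against 0.64 from TPM, so the sign depended on the unit. A short retained-intron transcript, Got1-203, held 0% of the gene's TPM in replicate 1 and 52.3% in replicate 2. Transcripts with a coding annotation held 51.9 TPM in replicate 1 and 37.0 TPM in replicate 2. Got2 shared 38.9% of its 31-base stretches with Got2-ps1, which had 13.95 and 4.11 reads in replicates 1 and 2. Glud1 shared 13.0% with other genes, chiefly Glud-ps at 3 and 2 reads.

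Most of the 39 genes were close between the libraries, with exceptions that included Acod1, Mdh1 and part of succinate dehydrogenase. Reads were compared as the log2 ratio of replicate 2 over replicate 1, with TMM-scaled library sizes and 0.5 reads added, for genes with a mean of at least 10 counts. Of 38 genes tested, 7 (18.4%) were 1.5-fold or more apart, against 30.3% of all 12552 genes tested and 24.9% of those with a mean of at least 10 TPM. In the direction of replicate 2 there were 2, Me1 and Acod1, against 13.9% of all genes tested. In the direction of replicate 1 there were 5, Sdhb, Mpc2, Sdhc, Mdh1 and Sdhd, against 16.5%. At 2-fold, 2 genes remained past the threshold, Me1 and Sdhb, against 11.3% of all genes tested. The median log2 ratio was 0.01 for the set and -0.02 for all genes tested, and the median size of the ratio, without sign, was 0.16 and 0.36.

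Me1 was 3.35-fold higher in replicate 2, a log2 ratio of 1.74 with an exact 95% counting interval of 1.43 to 2.08. Acod1 was 1.77-fold higher in replicate 2, a log2 ratio of 0.83 with an interval of 0.82 to 0.84. Sdhb was 2.16-fold higher in replicate 1, a log2 ratio of -1.11 with an interval of -1.18 to -1.04, from 7299 reads in replicate 1 and 2272 in replicate 2. Mpc2 had a log2 ratio of -0.86, Sdhc of -0.81, Mdh1 of -0.72 and Sdhd of -0.64. Sdha, by contrast, had 10611 reads in replicate 1 and 8142 in replicate 2, a log2 ratio of 0.19 with an interval of 0.15 to 0.23. From TPM in place of reads, Sdhc and Mdh1 were no longer 1.5-fold apart, at log2 ratios of -0.31 and -0.25, while Dlat, at -0.73, and Got1 were. For 27 of the 38 genes the counting interval did not include 0, so under TMM scaling these differed by more than counting error. The share over all genes tested is not given beside this count, so the count is not read as particular to the set. Error of the scaling itself is left out of the intervals. For example, the log2 ratio of Cs was 0.07 with TMM, with an interval of 0.03 to 0.12. It was 0.0007 with total counts and 0.09 with DESeq2 size factors. Neutrophil markers were also higher in replicate 1 as a sum, at the levels given above. Of 5 tested, 4 were 1.5-fold or more higher in replicate 1, against 16.5% of all genes tested. The other, Mmp8, was at 5.79 and 5.54 TPM in replicates 1 and 2, a log2 ratio of -0.05. The part of neutrophil markers in the differences between libraries was not tested.

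**Figure D3:**
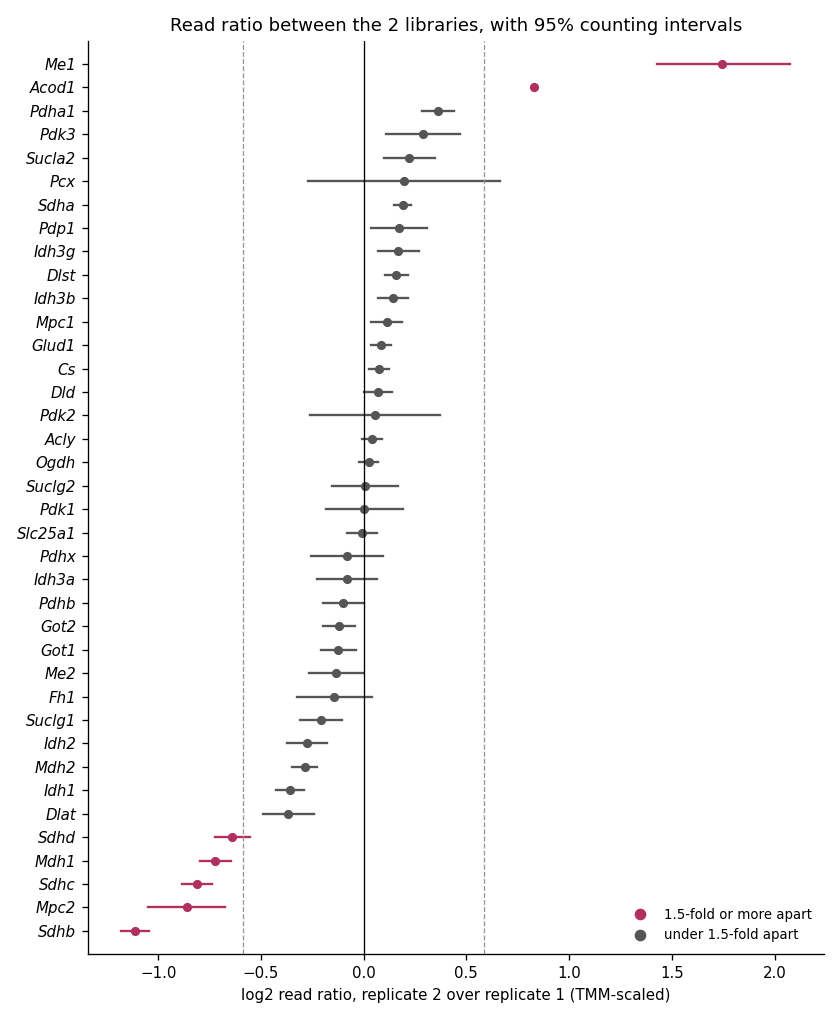
Log2 ratio of reads in replicate 2 over replicate 1 for the 38 genes with reads, TMM-scaled, with exact 95% intervals for counting error and dashed lines at 1.5-fold. Me1 and Acod1 lie beyond the line on the side of replicate 2, at 1.74 and 0.83, and Sdhb, Mpc2, Sdhc, Mdh1 and Sdhd on the side of replicate 1, from -1.11 to -0.64.

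For many of these genes the output was divided among transcripts, and the shares differed between the libraries. No share over all expressed genes is given beside the counts here and those for non-coding transcripts below. The counts are therefore not read as particular to the set. Of the 38 genes with reads, 17 had a leading transcript under 90% of the gene's TPM in at least 1 library, and by the mean over the 2 libraries the leading transcript was protein coding in all 38. In replicate 2 alone, the retained-intron Got1-203 was above Got1-201, at 52.3% and 44.8%. The second deposited quantification, made from the reads without an alignment file, named the same leading transcript for 32 genes and put 20 under 90%. The 6 genes with another leader were Pcx, Pdk1, Pdp1, Idh3a, Suclg2 and Acly. For Pdk1 and Idh3a its leaders were not protein coding, namely the processed transcript Pdk1-206 and Idh3a-204, which is marked for nonsense-mediated decay.

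For Ogdh the quantifications gave similar shares of the exons printed above, and the share of the Ogdh-202 exon was higher in replicate 2 by both. Transcripts with the Ogdh-201 exon held 80.7% of the gene's TPM in replicate 1 and 73.4% in replicate 2, and those with the Ogdh-202 exon 17.4% and 25.0%. The second quantification gave 80.6% and 71.3% for the Ogdh-201 exon and 17.0% and 25.9% for the Ogdh-202 exon. The exons differ in length by 12 bases, a multiple of 3. For Acly, transcripts with the 30-base exon of Acly-203 held 43.2% in replicate 1 and 52.0% in replicate 2, and 46.2% and 59.4% in the second quantification. For Sdhc, transcripts with the 102-base exon of Sdhc-202 held 55.6% in replicate 1 and 24.2% in replicate 2, and 41.9% and 20.7% in the second quantification. The share of the exon was higher in replicate 1 by both quantifications.

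Transcripts with no protein-coding label in the annotation, called non-coding here and including retained introns and those marked for nonsense-mediated decay, held over 20% of a gene's TPM in at least 1 library for 7 genes, and in both libraries for 2, Pdk1 and Idh3a. Those of Pdk1 held 54.1% in replicate 1 and 22.0% in replicate 2, and 79.8% and 70.2% in the second quantification. Those of Idh3a held 35.3% and 24.3%, and 67.7% and 65.2% in the second quantification. By the alignment-based values the coding transcripts of Idh3a were therefore at 10.7 and 10.9 TPM, lower than the gene's total. The second quantification put only 32.3% and 34.8% of the gene in the coding Idh3a-205, so the coding level is uncertain. For Dlat the non-coding share was 33.3% and 10.9% in replicates 1 and 2, for Mdh2 22.4% and 1.1%, for Slc25a1 15.0% and 41.2%, and for Idh3g 10.9% and 30.5%. The second quantification gave 51.6% and 26.6% for Dlat, 29.9% and 48.6% for Slc25a1, and 12.5% and 31.5% for Idh3g, but 4.9% and 0.97% for Mdh2, which would not pass 20%. The Slc25a1 share was mostly the retained-intron transcript Slc25a1-202, at 12.6% and 40.5%. The Idh3g share included the 395-base transcript Idh3g-207, at 0% in replicate 1 and 22.3% in replicate 2. For Got1 it was 2.1% and 55.2%, and 2.1% and 55.0% in the second quantification.

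In most of the other genes with a divided output the alternatives were coding. Mdh1-201 held 85.0% and 55.4% of Mdh1 in replicates 1 and 2, with most of the rest in the 549-base Mdh1-202. Sucla2-201 held 60.1% and 80.4%, with Sucla2-203 at 36.9% and 15.6%. Pdhx-201 held 95.9% and 74.8%, Fh1-201 83.5% and 94.7%, and Suclg2-204 67.8% and 100%. Pdp1-202 held 74.3% and 60.7%, but 45.4% and 9.3% in the second quantification. Dlst-201, at 82.9% and 91.3%, was accompanied by processed transcripts without a coding annotation.

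**Figure D4:**
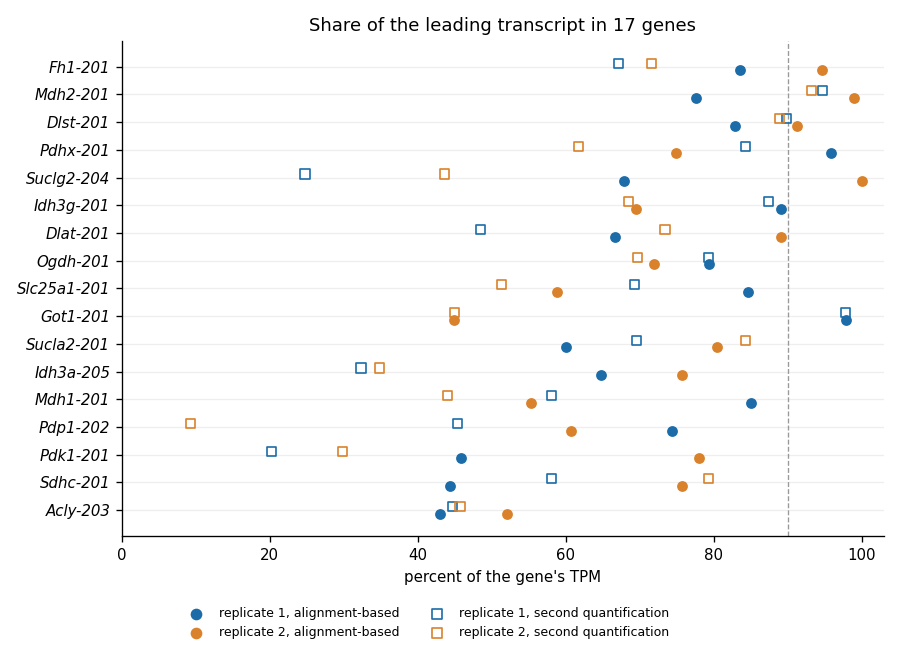
Percent of the gene's TPM held by the leading transcript of the 17 genes where it was under 90% in at least 1 library, with filled circles for the alignment-based tables and open squares for the second quantification, replicate 1 in blue and replicate 2 in orange. Ogdh-201 lies near 80% and 72% by both, while Pdp1-202, Pdk1-201, Idh3a-205 and Suclg2-204 differ widely between the quantifications.

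Upstream sequence was read for the 35 of 39 genes found in the RefSeq table, over the 250 bases before the start nearest to the leading transcript. All motif letters were chosen after the sequences had been read, both strands were searched, and a match is a description of letters only. The Acod1 window had a GC content of 44.4% and 2 CpG pairs, against medians of 62.4% and 19 for the 35 genes and 52.4% and 6 for all 32841 windows. Of all windows, 29.0% had 2 CpG pairs or fewer, and the lowest number among the other genes of the set was 6, in Pdk4. For GC content, 23.2% of all windows were at or below the Acod1 value, and Dld of the set was lower at 43.6%. TATAAA occurred in the windows of Acod1 and Got2, and in 12.4% of all windows. The Acod1 match lay 28 to 23 bases before the RefSeq start, which is bases 8 to 13 of the GENCODE transcript, whose start is annotated 35 bases further upstream. The kB-like letters GGANNTTCC occurred in Acod1 and Idh1, and in 3.59% of all windows. The GC box letters GGGCGG were found in 23 of 35 genes, against 32.7% of all windows, and not in Acod1. CCAAT was found in 20 of 35 genes, Acod1 among them, and in 33.9% of all windows. The ETS letters CCGGAAG were found in Mpc1, Idh3g, Sdhd and Glud1, and in 6.91% of all windows. The NRF1-like letters GCGCANGCG were found in Sucla2, Sdha and Sdhd, and in 5.16% of all windows, with 3 matches in Sdha. The letters GAAANNGAA of an interferon-response type were found in Suclg1 and Suclg2, and in 7.13% of all windows. The matches marked in the Acod1 region do not overlap one another.

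Genes that serve the same pathways were read from lists outside the set, of which 76 of 78 symbols matched. Of these, 34 were at 10 TPM or more in both libraries, against 27.3% of protein-coding genes. Another 15 were under 1 TPM in both, and the median was 8.95 TPM. Of 65 tested, 3 were 1.5-fold or more higher in replicate 2 and 11 in replicate 1, to be read beside the 13.9% and 16.5% of all genes tested.

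Pyruvate production was represented by Pkm at 555 ± 16.3 TPM and Ldha, which makes lactate from pyruvate, at 346 ± 36.1 TPM (SD, n = 2), followed by the monocarboxylate transporter Slc16a7 at 32.1 ± 1.02 TPM. The liver-type pyruvate kinase Pklr, the malic enzyme Me3 and the gluconeogenic Pck1 were at 0 TPM in both libraries. Of the 16 glycolysis genes matched, 13 were at 10 TPM or more in both libraries, against 27.3% of protein-coding genes. At 100 TPM or more in both there were 10, against 5.22%, and the median of the list was 176 TPM. The list was led by Gapdh at 1959 ± 282 TPM, Pkm and Ldha. The median of the glycolysis list was thus above the 53.4 TPM of the set, and Acod1 exceeded Gapdh in both libraries.

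Of 9 carriers of the inner mitochondrial membrane tested, 5 were 1.5-fold or more higher in replicate 1 and none in replicate 2, against 16.5% and 13.9% of all genes tested, with a median log2 ratio of -0.72. The other 4 had log2 ratios of 0.15 for Slc25a12, -0.08 for Slc25a13, -0.21 for Slc25a4 and -0.33 for Slc25a22. The adenine nucleotide carrier Slc25a5 was at 641 TPM in replicate 1 and 325 TPM in replicate 2. The phosphate carrier Slc25a3 was at 332 and 200 TPM and the dicarboxylate carrier Slc25a10, which exports malate and succinate, at 161 and 98.4 TPM. The glutamate carrier Slc25a18 was at 0.02 and 0.03 TPM.

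Assembly of succinate dehydrogenase needs dedicated factors. Sdhaf2, which helps attach flavin to SDHA, was at 46.0 ± 0.28 TPM, Sdhaf4 at 12.9 ± 8.53 TPM and Sdhaf1, which serves the iron-sulfur subunit, at 3.53 ± 0.24 TPM (SD, n = 2). Sdhaf3 was at 0.67 and 0.43 TPM in replicates 1 and 2. Sdhaf4 was the single one of the 4 past 1.5-fold, against 30.3% of all genes tested, with a log2 ratio of -1.37 from 232 and 60 reads.

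Lipoic acid, the cofactor of the pyruvate and 2-oxoglutarate dehydrogenase E2 subunits, is made by Lias, at 19.0 ± 9.11 TPM. It was followed by the iron-sulfur factors Glrx5 at 8.61 ± 2.98 TPM and Fdx1 at 6.18 ± 2.43 TPM, while the lipoyl transferase Lipt1 was at 0.48 and 0.88 TPM in replicates 1 and 2. Among relatives of the dehydrogenases, Bckdk and Bckdha of branched-chain keto acid oxidation were at 36.7 ± 3.71 and 15.9 ± 5.98 TPM and the E2 gene Dbt at 6.37 ± 0.17 TPM. Ogdhl and Dhtkd1, which are related to Ogdh, were at 0.07 and 0.01 TPM and at 0.06 and 0.04 TPM.

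Of the genes of glutamine handling, glutamine synthetase Glul was at 49.3 ± 4.76 TPM and the transporter Slc38a2 at 13.5 ± 4.65 TPM (SD, n = 2). The liver-type glutaminase Gls2 was at 0 and 0.38 TPM in replicates 1 and 2. For acetyl-CoA, Hmgcs1 of sterol synthesis was at 54.1 ± 1.15 TPM, the acetyltransferase Ep300 at 20.9 ± 2.28 TPM and the mitochondrial acetyl-CoA synthetase Acss1 at 12.3 ± 1.75 TPM, with Acacb at 0.16 and 0.39 TPM.

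Among genes of itaconate and related acid catabolism, Mcee of propionate breakdown was at 32.3 ± 5.99 TPM, Auh of leucine breakdown at 16.1 ± 4.02 TPM and the thiolase Acat1 at 15.2 ± 1.11 TPM (SD, n = 2). Clybl, which splits citramalyl-CoA derived from itaconate, was at 6.40 and 7.34 TPM in replicates 1 and 2 from 190 and 149 reads. None of the 10 genes was 1.5-fold or more apart between libraries, against 30.3% of all genes tested.

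Of the sensors and transporters of cycle metabolites, Nfe2l2, which encodes the NRF2 factor that itaconate can activate, was at 355 ± 148 TPM, higher in replicate 2 at a log2 ratio of 0.88. The dicarboxylate transporter Slc13a3 was at 91.9 and 109 TPM in replicates 1 and 2, and Hif1a, whose protein succinate can stabilise, at 43.2 ± 12.2 TPM. The succinate receptor Sucnr1 and the 2-oxoglutarate receptor Oxgr1 were at 0 TPM in both libraries. The citrate transporter Slc13a5 was at 0 and 0.10 TPM and the oxygen sensor Egln3 at 0.07 and 0.02 TPM. Keap1, which holds NRF2 in check, was at 50.8 and 31.7 TPM.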

How the data were processed

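PolyA-selected RNA from 2 macrophage libraries of 1 group was analysed from the tables the authors deposited for each library. Per the notes deposited with the samples, values refer to mm10 and GENCODE M21. The deposited expected counts are estimated reads per gene from transcriptome alignments, and the deposited TPM and FPKM values are scaled to transcript length and to the library. The deposited percent values give each transcript's share of its gene. A second deposited table gave estimated counts and TPM per transcript, made straight from the reads, and its transcripts were added up per gene for comparison. For program names and strand use, the sources used here give nothing. Rows outside annotated genes held 0.0788% and 0.0771% of counts in replicates 1 and 2 and stayed out of ratios.

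Expected counts were rounded to whole reads. Library sizes were scaled by TMM (edgeR 4.0.16, R 4.3.3), 0.5 reads were added, and genes with a mean count of at least 10 were compared. With 1 library on each side no test was possible, so a 1.5-fold threshold called genes, and exact intervals cover only counting error (PCR copies of reads are not independent). Shares, 31-base matches and upstream letters were computed with Python 3.11.15 and pandas 2.3.3. Alternatives were the second quantification, FPKM, TPM rescaled to nuclear protein-coding genes, other levels, DESeq2 1.42.0 size factors, total counts, other filters, prior counts and folds, and leaving out each library.

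The genes and lists were chosen with earlier results of these data known. All 39 genes were named. From other lists, the 3 highest and those under 1 TPM in both libraries were to be named, and the highest marker of each cell type, with a few others in each added after their values were seen. Some genes that this rule picks are not reported here. Of 150 listed symbols 3 matched no single identifier (Fdx2, Glud2 and Aldoa).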

Additional observations from a re-analysis of the deposited data

How the results depend on the processing

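No paired analysis was possible because the 2 libraries form 1 group and share no replicate number with another. Read ratios of single genes kept their side of 1.5-fold, and the 7 called genes their direction, under every other scaling, filter, prior count and quantification tried, except from TPM, where Sdhc (-0.31) and Mdh1 (-0.25) fell within it, Dlat (-0.73) passed it and Got1 turned to 0.64 from -0.12. With a 2-fold threshold 2 genes were called in place of 7. The genes at 100 TPM numbered 2 in FPKM in place of 6. The median level of 53.4 TPM was 36.1 in FPKM and 61.2 after rescaling to nuclear protein-coding genes. Both units multiply TPM by a constant for each library, so the median and the genes past a fixed level shift with the unit. In the second quantification the median level was 46.5, and the cause was not tested. The other 37 values of summaries stayed within the spread between replicates or within 1.5 times, but several could not do otherwise. For the Acod1 ratios and share, the main value is the mean of the libraries. Leaving out a library therefore always stays within their SD. FPKM and rescaled TPM are proportional to TPM within a library, so the Acod1 ratios and share cannot change with them. Such values say nothing of how stable the results are. Leaving out a library in turn gave 31 to 32 genes at 10 TPM, 7 to 8 at 100 TPM, Acod1 shares of 56.2 to 71.2%, median levels of 51.2 to 55.6 TPM, and Acod1 ratios of 50.0 to 85.9 over Idh genes and 24.1 to 48.9 over Sdh genes. Without replicate 2 the Sdh ratio was thus over 1.5 times below the 36.5 of both libraries. Low depth limits Pcx, Pdk2 and Me1, with 71 to 262 reads each.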
